A study of Mus musculus with 8 samples.

Results

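Matricellular and injury-matrix genes encode proteins that are secreted into the matrix and act on cells or on matrix assembly more than as load-bearing fibres. The list held 10 such genes: Postn, Spp1, Tnc, Thbs1, Thbs4, Sparc, Cthrc1, Cilp, Pamr1 and Fn1. For each gene, probe sets (groups of short oligonucleotides that read 1 transcript) annotated to that gene symbol alone were taken, and the one with the highest mean over all 8 arrays was kept. This gave 9 of the 10 genes, out of 9607 genes tested in all. Spp1, which encodes osteopontin, had no probe set under this rule and was not analysed here. The mean over the 8 arrays chose the probe set without regard to group, but the genes themselves were chosen by their values in earlier results of these arrays, so their levels and differences stand here as a description.

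RNA came from the heart ventricles of male mice of the inbred FVB strain, 8 to 12 weeks old, each 1 week after the ascending aorta had been banded to load the left ventricle with pressure. In 4 of the mice a CHF1/Hey2 transgene was expressed in heart muscle from the mlc2v promoter, which is active in ventricular muscle cells and not in fibroblasts, the main source of matrix. The other 4 mice were wild type, and both groups were banded, so no array shows the level before banding. Each mouse was hybridised to 1 Affymetrix expression array. Nothing in the labels names litters, transgenic lines or processing batches. The p-values therefore set the difference between groups against the spread within the groups of these 8 arrays, pooled over both groups. They came from limma, which draws each gene's pooled spread towards a value shared by all genes tested. The SEs and confidence intervals of the differences use this adjusted spread, and the SDs do not.

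In the loaded heart, fibroblasts are known to become activated and to secrete a provisional matrix. Fibronectin and tenascin-C are laid down early at sites of injury, periostin binds integrins and collagen and marks activated fibroblasts, and thrombospondins bind matrix and growth factors. Transforming growth factor beta is a well known inducer of many of these genes.

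The regulatory sequences below stand for members that lay low together in 1 array but parted in another. Each is the 250 bases before a transcription start in RefSeq's table for GRCm38.p6, written 5′ to 3′ on the strand of the gene. This table held windows for 6 of the 10 listed genes (Postn, Spp1, Tnc, Thbs4, Sparc and Cilp). For Postn, which has 2 listed starts, the downstream one is shown because it holds a motif match. Capitals mark matches to the motifs searched.
Postn, chr3:54360857-54361106, + strand: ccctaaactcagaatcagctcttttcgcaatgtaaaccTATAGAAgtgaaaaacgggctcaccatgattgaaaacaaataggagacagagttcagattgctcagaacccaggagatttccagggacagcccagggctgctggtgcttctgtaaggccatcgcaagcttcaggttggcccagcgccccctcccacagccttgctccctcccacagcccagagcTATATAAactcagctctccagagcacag
Cilp, chr9:65264930-65265179, + strand: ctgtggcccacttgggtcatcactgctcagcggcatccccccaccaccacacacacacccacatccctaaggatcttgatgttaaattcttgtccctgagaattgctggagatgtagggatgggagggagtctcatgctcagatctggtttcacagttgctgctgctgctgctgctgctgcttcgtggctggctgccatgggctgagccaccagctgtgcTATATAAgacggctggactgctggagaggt
Thbs4, chr13:92794819-92795068, - strand: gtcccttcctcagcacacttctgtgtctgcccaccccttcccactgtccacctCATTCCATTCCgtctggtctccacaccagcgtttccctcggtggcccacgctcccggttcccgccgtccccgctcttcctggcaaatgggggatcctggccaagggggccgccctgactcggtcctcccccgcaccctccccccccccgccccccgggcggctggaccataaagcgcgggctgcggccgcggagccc
Sparc, chr11:55420081-55420330, - strand: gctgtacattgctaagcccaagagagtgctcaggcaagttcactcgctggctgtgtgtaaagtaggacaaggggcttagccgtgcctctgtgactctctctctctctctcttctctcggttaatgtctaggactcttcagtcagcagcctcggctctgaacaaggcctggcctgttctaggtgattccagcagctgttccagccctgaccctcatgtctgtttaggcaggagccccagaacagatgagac

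The motifs were TATANAA, the core of a TATA box, on the strand of the gene, and 4 more on both strands. Proteins of the hairy-related family are known to bind CACGTG. They are also known to bind CACGCG. An AP-1 site was searched as TGANTCA, and a TEAD factor site as CATTCC. Postn held TATATAA with its first base 28 bases before the start, and Cilp held it 30 bases before the start. A match to TATANAA within 16 to 45 bases before the start occurred in 1.62% of 32851 windows. Postn also held TATAGAA, with its first base at 212, and its upstream window, not shown, held none of the 5 motifs. Of the 2 windows of Tnc, also not shown, 1 held TATATAA with its first base at 29. Thbs4 held CATTCC at 197 and again at 192, overlapping in 1 base, and 12.6% of windows held this motif. The Sparc window held none of the 5 motifs. None of the 4 sequences shown held either hairy-family motif or the AP-1 motif; CACGTG occurred in 6.02% of all windows, the second hairy-family motif in 7.62% and the AP-1 motif in 6.75%. These matches describe the letters of the windows and say nothing of binding.

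The arrays were not equally alike. Over the 9607 genes, transgenic replicate 2 departed more than 2-fold from the median over the remaining arrays at 3572 (37.2%) and transgenic replicate 3 at 891 (9.27%), and each of the 6 further arrays did so at 72 to 149. The 3′ minus 5′ difference of the beta-actin control probe sets was 0.62 on the log2 scale for transgenic replicate 2, below the 0.78 to 1.21 of the other 7 arrays, whereas that of Gapdh was -0.27 there, inside the -0.28 to -0.11 of the others. Hey2 ranged from 5.70 to 6.26 in the arrays labelled transgenic and from 5.68 to 6.76 in wild type, so it did not check the labels, and the labels do not say whether its probe set reads the transgene. Heart muscle markers were high in every array, with Myh6, the adult myosin heavy chain, between 15.80 and 16.11. The lowest of their values was 13.22, for Pln in transgenic replicate 2. In that array 7 of the 10 lay below all 4 wild-type arrays, against 33.5% of all genes tested. Fibroblast markers were present throughout (12 of 12 passed the filter), and 6 of 6 lymphocyte markers with a probe set lay below 5 in all 8 arrays. All levels here are log2 values, on which 1 unit is 2-fold, and levels of different genes are not compared because probe sets differ in response.

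The 9 measured genes shared their low array. Each had its lowest value in transgenic replicate 3, and 7 of the 9 had their highest in transgenic replicate 2, as had 46.8% of all genes tested. Transgenic replicates 1 and 4 lay closer to wild type: 1 of the 9 genes was below all 4 wild-type arrays in replicate 1 (14.1% of all genes) and 4 of the 9 in replicate 4 (9.12%), with 1 more than 1 log2 unit below the wild-type mean there (0.26%). Means were lower in the arrays labelled transgenic for 9 of 9 genes, but no difference passed (limma, adjusted p between 0.813 and 0.823). Without transgenic replicate 3, 6 of the 9 turned to the other sign.

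**Figure D1:**
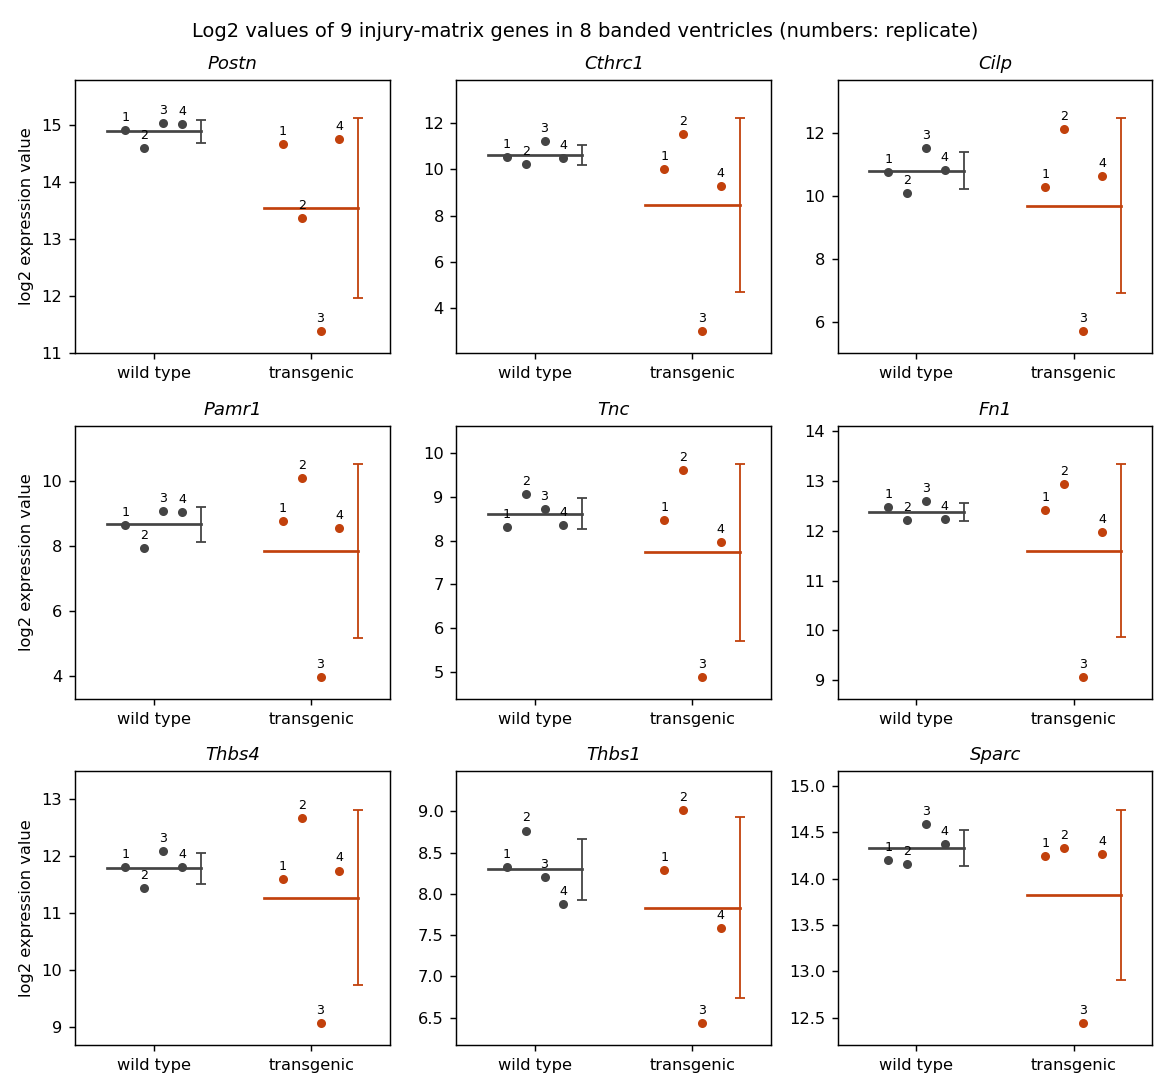
Log2 expression of the 9 genes in each array, with wild type in grey and arrays labelled transgenic in orange. Points are single arrays numbered by replicate, horizontal lines are group means and bars are SD (n = 4); transgenic replicate 3 is the lowest point of all 9 panels.

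Postn, which encodes periostin, gave 14.66, 13.37, 11.38 and 14.75 in transgenic replicates 1 to 4 and 14.91, 14.60, 15.03 and 15.01 in wild-type replicates 1 to 4. The wild-type arrays were tight, transgenic replicates 1 and 4 fell inside their range, and replicates 2 and 3 both lay below it. Means of 13.54 ± 1.57 and 14.89 ± 0.20 (SD, n = 4 in both groups) differed by -1.35 (SE 0.675; 95% confidence interval -2.88 to 0.19; limma adjusted p = 0.813). Without transgenic replicate 3 it was -0.63, and without replicates 2 and 3 it was -0.18 (95% confidence interval -0.54 to 0.18). Postn was the only 1 of the 9 genes that lay below all 4 wild-type arrays in transgenic replicate 2, at -1.52 relative to the wild-type mean, where 7 others lay above all 4. Of all genes tested, 33.5% lay below the wild-type arrays in that array, 20.5% more than 1 log2 unit below the wild-type mean, and 52.0% above the wild-type arrays.

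Cthrc1, a secreted protein with a collagen triple helix repeat made by activated fibroblasts, had 10.004, 11.50, 3.02 and 9.28 in transgenic replicates 1 to 4 and 10.52, 10.23, 11.23 and 10.47 in wild-type replicates 1 to 4. In transgenic replicate 3 it lay below 3.35, the median of all probe sets on that array, so its signal there could not be told from no signal. It was at least 48.9-fold lower there than the wild-type mean, counted against the level of 5 that the filter used. Cthrc1 was also the only 1 of the 9 genes below all 4 wild-type arrays in both transgenic replicates 1 and 4, a pattern that 1.83% of all genes showed. With the replicate 3 value taken as measured, the difference was -2.16 (SE 1.58, limma adjusted p = 0.813) over all arrays and -0.35 without replicate 3. Without replicates 2 and 3 it was -0.97 (95% confidence interval -1.70 to -0.24; unadjusted p = 0.0162), which did not pass after adjustment (limma adjusted p = 1.00). With these 6 arrays 187 genes (1.95%) had an unadjusted p under 0.05.

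Cilp encodes cartilage intermediate layer protein, which can bind transforming growth factor beta. Its values were 10.30, 12.14, 5.70 and 10.64 in transgenic replicates 1 to 4 and 10.77, 10.11, 11.54 and 10.85 in wild type. Transgenic replicate 3 was 34.8-fold below the wild-type mean and transgenic replicate 2 was 2.51-fold above it, while replicates 1 and 4 fell inside the wild-type range. Pamr1, a secreted protein named for its link to muscle regeneration, followed the same course, with 8.77, 10.08, 3.99 and 8.56 in transgenic replicates 1 to 4 and 8.64, 7.93, 9.06 and 9.04 in wild type. It was 2.67-fold above the wild-type mean in replicate 2 and, counted against the level of 5, at least 12.7-fold below it in replicate 3. The differences of Cilp and Pamr1 were -1.12 (SE 1.196) and -0.82 (SE 1.14), and without transgenic replicate 3 they were 0.21 and 0.47. These profiles were close to each other, with a root mean square distance of 0.28 on the log2 scale over 8 arrays, each gene centred on its own mean. This distance took the Pamr1 value in replicate 3, under the level of 5, as measured.

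Tnc encodes tenascin-C, a large glycoprotein that appears transiently where tissue is remodelled. It had 8.47, 9.61, 4.88 and 7.96 in transgenic replicates 1 to 4 and 8.32, 9.08, 8.72 and 8.35 in wild type. Replicate 3 was under the level of 5, at least 12.3-fold below the wild-type mean, and replicate 4 also lay under the lowest wild-type array. Fn1, fibronectin, on which much of the provisional matrix assembles, had 12.42, 12.94, 9.07 and 11.97 in transgenic replicates 1 to 4 and 12.47, 12.21, 12.59 and 12.23 in wild type. It was 9.88-fold below the wild-type mean in replicate 3, and replicate 4 again lay just under the wild-type arrays. The differences of Tnc and Fn1 were -0.89 (SE 0.868) and -0.77 (SE 0.741) and were 0.06 and 0.07 without replicate 3, that is, within the wild-type SDs of 0.36 and 0.19.

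The thrombospondins are calcium-binding glycoproteins, and the product of Thbs1 is known to activate latent transforming growth factor beta. Thbs1 had 8.29, 9.02, 6.44 and 7.59 in transgenic replicates 1 to 4 and 8.33, 8.77, 8.21 and 7.88 in wild type. Replicate 3 was 3.63-fold below the wild-type mean, and replicate 4 lay below the wild-type range as well. Thbs4 had 11.59, 12.66, 9.08 and 11.74 against 11.81, 11.43, 12.09 and 11.80. It was 6.49-fold below the wild-type mean in replicate 3, and replicates 1 and 4 lay inside the wild-type range. Their differences were -0.46 (SE 0.501) and -0.51 (SE 0.663), and 0.0005 and 0.21 without replicate 3.

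Sparc, a collagen-binding glycoprotein also called osteonectin, had 14.24, 14.33, 12.45 and 14.26 in transgenic replicates 1 to 4 and 14.20, 14.16, 14.58 and 14.37 in wild type. Apart from replicate 3, which was 3.69-fold below the wild-type mean, the arrays labelled transgenic lay inside the wild-type range, replicate 2 included. The difference was -0.51 (SE 0.413), or -0.05 without replicate 3 (95% confidence interval -0.45 to 0.35).

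Other probe sets of the members, which the rule did not keep, allowed a second reading of some genes in the same arrays. The other Thbs1 probe set lay, relative to its wild-type mean, at -1.69 in transgenic replicate 3 and 1.08 in replicate 2, where the one kept lay at -1.86 and 0.72. Of the other 2 Sparc probe sets, the brighter one lay at -1.29 in replicate 3 and at 0.30 in replicate 2. The second Fn1 probe set, with values above 5 in 5 of 8 arrays, lay at -2.09 in replicate 3, where its value of 3.45 was under that level. The third Sparc probe set, between 4.67 and 5.10 in all 8 arrays, lay at 0.05 in replicate 3 and did not show the low value. The second Tnc probe set, above 5 in 0 arrays, lay at 0.0073.

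**Figure D2:**
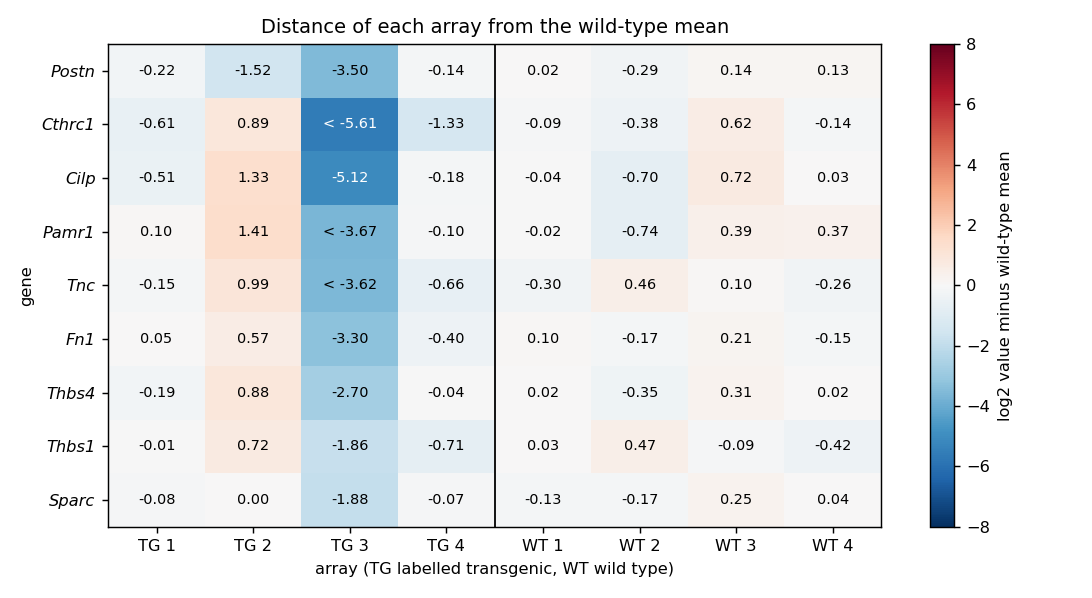
Log2 value minus the wild-type mean of the gene for the 9 genes (rows) in the 8 arrays (columns), with blue below and red above that mean. In the column of transgenic replicate 3 the 6 genes above the level of 5 run from -1.86 (Thbs1) to -5.12 (Cilp), while Cthrc1, Pamr1 and Tnc were under it and are drawn at that level, marked < as bounds; Postn is the only gene clearly below 0 in transgenic replicate 2.

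Read against all genes, the low values of transgenic replicate 3 were far out, and the high values of replicate 2 were less so. In replicate 2, 4.29% of all genes lay as high relative to the wild-type mean as Pamr1 and 6.07% as high as Cilp. For the other members this share ran from 18.1% (Tnc) to 85.9% (Postn). In replicate 3, 9 of 9 members lay more than 1 log2 unit below the wild-type mean, against 6.26% of all genes tested, and 9 of 9 were lowest of the 8 arrays, against 23.5%. Relative to the wild-type mean, the 6 members above the level of 5 in that array lay at -5.12 (Cilp), -3.50 (Postn), -3.30 (Fn1), -2.70 (Thbs4), -1.88 (Sparc) and -1.86 (Thbs1). Cthrc1, Pamr1 and Tnc were under that level and have only the bounds given above. In replicate 2, 2 of 9 members lay more than 1 log2 unit above the wild-type mean, near the 17.8% of all genes, and the members' median of 0.88 stood beside 0.29 over all genes. The choice of members was made with these arrays known, so these counts describe the list and support nothing.

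The group comparison over the whole table asked how the transgene bears on these genes under pressure load. With limma and Benjamini-Hochberg adjustment at 0.05, 0 of 9 members were called lower and 0 higher, as were 0.0% of all 9607 genes in each direction. At an unadjusted p under 0.05 there were 0 members and 153 genes (1.59%). The members' median difference was -0.82, beside 0.06 over all genes, and means were lower in 9 of 9 members against 43.0% of all genes. Without transgenic replicate 3 the median was 0.06, beside 0.12 over all genes, and 3 of 9 members had a lower mean, against 39.4%. Without transgenic replicate 2 it was -1.29, with 9 of 9 lower, against 44.1%. Without replicates 2 and 3 the median was -0.18, beside 0.05 over all genes, with 9 of 9 members lower, against 34.7%, though the difference of Pamr1 was -0.0019. The 2 groups did not separate for any member, whereas 0.479% of all genes were lower and 2.00% higher without overlap. The members' SDs ran from 0.92 (Sparc) to 3.74 (Cthrc1) in the arrays labelled transgenic and from 0.19 to 0.58 in wild type.

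**Figure D3:**
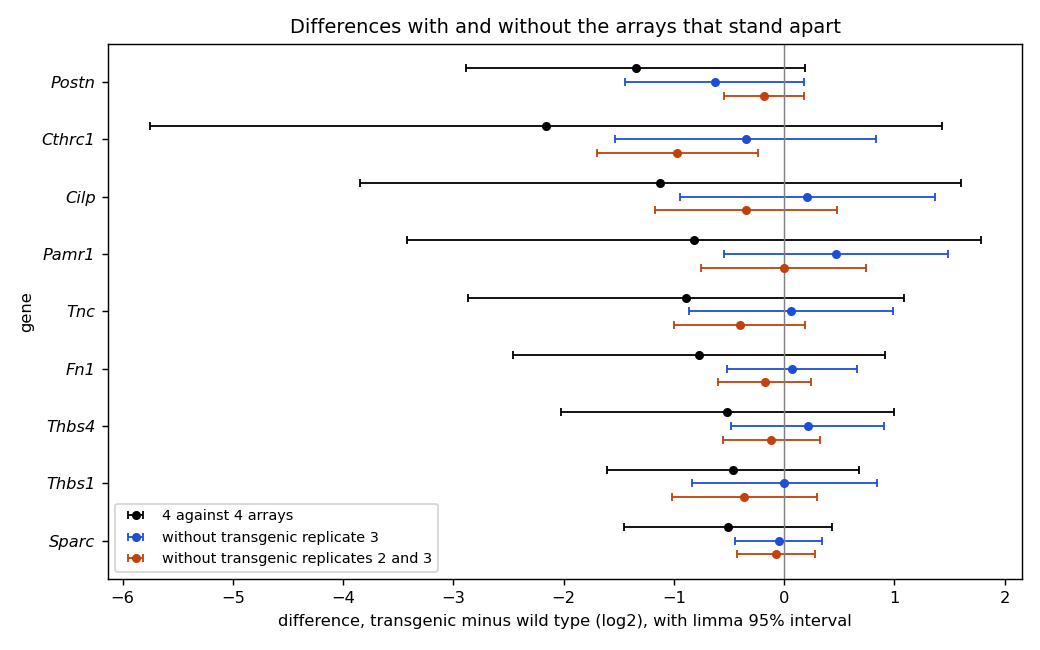
Difference between group means (transgenic minus wild type, log2) of the 9 genes with limma's 95% confidence interval, for all 8 arrays (black), without transgenic replicate 3 (blue) and without transgenic replicates 2 and 3 (orange). Only the interval of Cthrc1 without both replicates, -1.70 to -0.24, leaves out 0, and it did not pass after adjustment.

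The wild-type arrays had an order of their own. Wild-type replicate 3 was the highest and wild-type replicate 2 the lowest wild-type array for 7 of the 9 genes (Postn, Thbs4, Sparc, Cthrc1, Cilp, Pamr1 and Fn1), against 11.2% of all genes tested (24.7% for the first and 31.9% for the second alone). Some of these ranks were near ties. Wild-type replicates 3 and 4 gave 15.03 and 15.01 for Postn and 9.06 and 9.04 for Pamr1. For Fn1, wild-type replicates 2 and 4 gave 12.21 and 12.23. Tnc and Thbs1 instead had wild-type replicate 2 as the highest, at 9.08 and 8.77, as had 21.6% of all genes. The range over wild type was 1.42 for Cilp, the widest, and 0.38 for Fn1, the narrowest. The neutrophil markers S100a8 and S100a9 were highest in wild-type replicate 3 too, at 10.001 and 9.91. The other wild-type arrays gave 5.17 to 7.99 and 5.09 to 8.06, with wild-type replicate 1 the lowest for both. Csf3r, the only other neutrophil marker that passed the filter, was instead highest in wild-type replicate 1, at 5.49, against 5.33 in wild-type replicate 3. The part of these markers in the members' order was not tested.

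Other matricellular genes showed the low values of transgenic replicate 3 in part. Of 29 listed, 24 passed the filter, and 0 were called in either direction by limma, with 0 at an unadjusted p under 0.05; 15 had a lower and 9 a higher mean, with a median difference of -0.20, or 0.22 without transgenic replicate 3. In replicate 3, 14 of 24 lay more than 1 log2 unit below the wild-type mean, and 18 were lowest of the 8 arrays. The list's extremes were Ogn, the proteoglycan osteoglycin, at -1.18, and Tnxb, tenascin-X, at 0.51. Ogn had 12.42, 8.76, 11.76 and 11.79 in transgenic replicates 1 to 4 against 12.17 to 12.59 in wild type, so replicate 2 was the lowest, and its difference was -0.38 without it. Tnxb, of the same family as Tnc, was 9.95 in transgenic replicate 3, inside the wild-type range of 9.29 to 10.02, and its difference was 0.54 without that array.

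Receptors of these proteins gave no call either. Of 16 listed, 14 were measured, with lower means for 11 and higher for 3; limma called 0, and 0 reached an unadjusted p of 0.05. Their median was -0.22, or -0.09 without transgenic replicate 3. Itgb8, an integrin that activates transforming growth factor beta, was at -0.96, and Cd47, a thrombospondin receptor, at 0.11, which were the extremes. Itgb8 was 3.27 in transgenic replicate 2 and 4.31 in replicate 3, both under the level of 5, and its difference was -0.14 without these arrays. Among 17 measured regulators of matrix genes, 10 were lower and 7 higher, with 0 called, 0 that reached an unadjusted p of 0.05 in limma and a median of -0.0049. Tead1, a TEAD transcription factor, was at -0.78, or -0.09 without transgenic replicate 2, and Smad3, which carries the signal of transforming growth factor beta, at 0.46. Tgfb2, a transforming growth factor beta, was 8.39 in transgenic replicate 3 against 10.35 to 11.13 in wild type, and Tgfb1 was 8.67 against 8.89 to 9.38. The regulators as a list had a median of -0.17 in that array relative to the wild-type mean. There, 4 of the 17 lay more than 1 log2 unit below it.

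Markers of some other cells were also low in transgenic replicate 3. The fibroblast list had a median of -0.90 there, with 5 of 12 genes more than 1 log2 unit below the wild-type mean, and its summed level (log2 of the sum of linear values) was 15.76, against 16.56 to 16.83 in the other 3 arrays labelled transgenic and 16.63 to 16.83 in wild type. Its members parted: Col1a1, a chain of type I collagen, lay at -3.66 relative to its wild-type mean and Pdgfrl at -3.81, whereas the defining markers Pdgfra and Tcf21 lay at -0.68 and -0.60, Dpt at -0.08 and Gsn at 0.41. The macrophage list had a median of -1.13 in that array, with 8 of 13 genes more than 1 log2 unit lower and a summed level of 13.31, against 14.22 to 15.05 in the other arrays labelled transgenic and 14.06 to 14.76 in wild type. Endothelial and heart muscle lists lay at 0.04 and 0.05 there, and none of their 8 and 10 genes was 1 log2 unit lower. The smooth muscle and pericyte list lay at -0.14, with 1 of 10 genes that low. The part of these cells in the low values was not tested, and in whole ventricle fewer cells of a type and less RNA per cell cannot be told apart.

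Genes by which pressure load is commonly read were low in the same array as well. For Nppa, which encodes a natriuretic peptide of the atria, that array gave 12.96 and wild type 14.66 to 15.25, and for Myh7, the slow myosin heavy chain, 12.14 against 13.74 to 14.64. The 4 genes of this list (Nppa, Nppb, Myh7 and Acta1) were all lowest in that array, but not equally so. Nppa and Myh7 lay there at -2.03 and -2.13 relative to the wild-type mean, and Nppb and Acta1 at -0.52 and -0.65. The median of the 4 genes was -1.34. Their part in the members' low values was not tested.

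**Figure D4:**
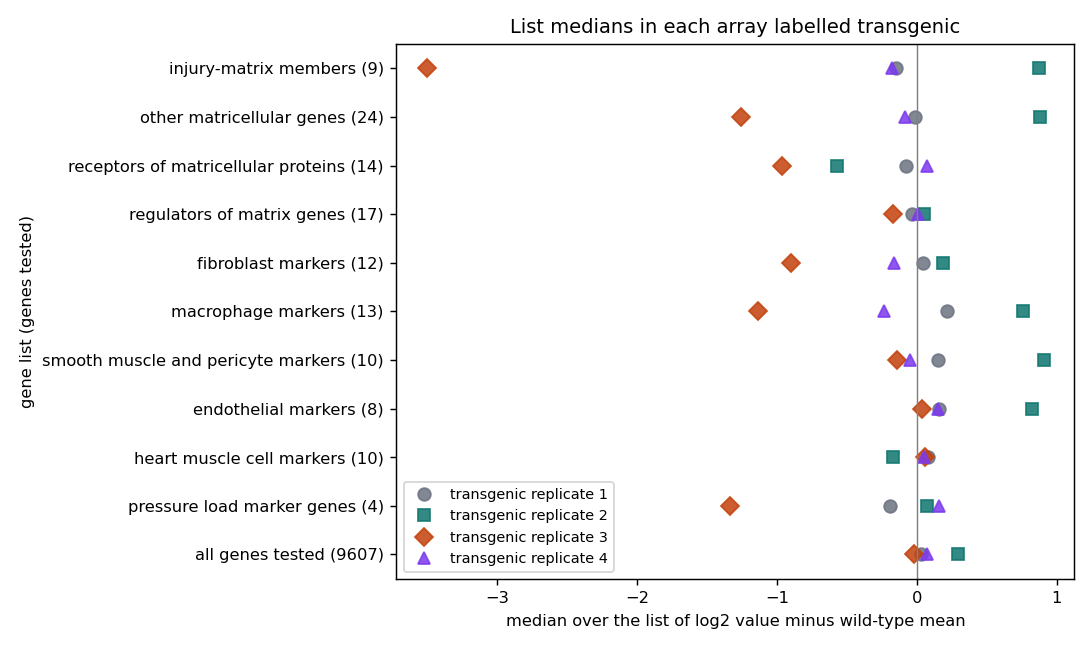
Median over each gene list of log2 value minus the wild-type mean, 1 symbol per array labelled transgenic, with the number of genes tested in brackets. Transgenic replicate 3 lies at -3.50 for the 9 injury-matrix genes and at -0.02 for all genes. Between them lie the other matricellular, receptor, fibroblast, macrophage and load lists. The regulators (-0.17) and the smooth muscle and pericyte list (-0.14) also lie between, nearer to all genes.

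Postn was set apart from the other members by its low value in transgenic replicate 2. By root mean square distance between profiles centred on their own means over the 8 arrays, the nearest of the genes outside the list was Col8a1, a short-chain collagen, at 0.26, followed by Itgbl1 at 0.27, Dio2, a thyroid hormone deiodinase, at 0.37, Adamts12, a metalloprotease, at 0.40, and Lox, the enzyme that cross-links collagen, at 0.41. Tenm3, Dpysl3, Tgfb2, Snap91 and Star completed the 10, at 0.43 to 0.49. These genes were picked for likeness to Postn over the same 8 arrays, so low values in transgenic replicates 2 and 3 follow from the choice; relative to the wild-type mean they ran from -2.30 to -0.60 in replicate 2 and from -4.44 to -2.25 in replicate 3. Dio2, Adamts12, Tenm3 and Star were under the level of 5 in replicate 3, and Adamts12 also in replicates 2 and 4. The nearest other member was Sparc at 0.67, in place 50 among all genes, and the farthest was Cthrc1 at 1.70. All these distances took values under the level of 5 as measured, that of Cthrc1 in replicate 3 included. Among the other members, Thbs4 and Fn1 had the closest profiles, at 0.27.

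**Figure D5:**
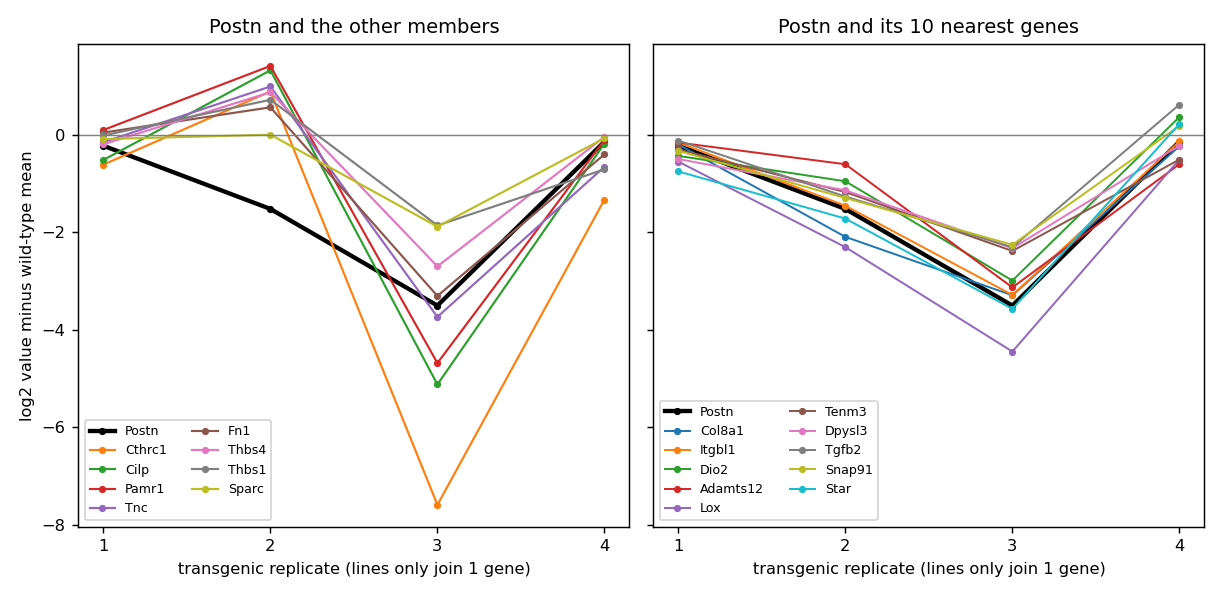
Log2 value minus the wild-type mean in the 4 arrays labelled transgenic, for the 9 members (left) and for Postn with its 10 nearest genes (right); lines join the values of 1 gene and imply no order of the mice. In transgenic replicate 2 Postn lies at -1.52 and the other members between 0.00 and 1.41; the 10 genes on the right were chosen by their likeness to Postn in these arrays.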

How the data were processed

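The authors deposited log2 expression values of 45101 probe sets on 8 arrays, made with GCRMA per the submitters' processing notes, a background correction and normalization method; its version, the software and further settings were not stated in what was used. Values of probe sets without signal lie at a low floor, where differences are hard to read. Arrays give no depth, and their number limits the precision. Groups came from the sample titles.

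Probe sets had to exceed 5 in at least 4 of the 8 arrays, and for each symbol the one with the highest mean was kept, which left 9607 genes. Symbols came from the platform annotation, updated by Entrez identifier. The 932 probe sets annotated to more than 1 symbol and the 9211 not in the annotation were not used. Transgenic minus wild type was fitted with limma 3.58.1 in R 4.3.3 over all genes, with Benjamini-Hochberg adjustment, and the fit was tested on simulated data. The members, the lists and the alternatives were chosen with earlier results of these data known. Named genes were the members, the extremes of each pathway list, the 10 genes nearest to Postn and markers. Col1a1, Pdgfrl, Dpt, Gsn, Tgfb1, S100a8, S100a9, Csf3r, Nppa, Nppb, Myh7 and Acta1 were singled out of the fixed lists after their values were seen. Alternatives changed the filter, scaling, model, probe set rule, threshold and arrays.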

Additional observations from a re-analysis of the deposited data

Results flagged for a closer look

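Among 18 groups of 4 arrays (9 genes in 2 groups), 1 held an array far from the others by Dixon's criterion. Chance gives this in about 1 of 20 independent groups, but these groups share arrays and their genes were chosen from these data, so that rate does not apply here. It was Sparc in transgenic replicate 3, at 12.45, where the nearest of the other arrays labelled transgenic was 14.24, a gap of 0.953 of the whole range. The criterion divides by the range, which spread among the other arrays widens. Cthrc1 in transgenic replicate 3, with a gap of 6.26 in a range of 8.48, was not flagged. That array was lowest for all 9 genes, so the flag does not set Sparc apart.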

How the results depend on the processing

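No member was called under any alternative run (limma adjusted p between 0.477 and 1.00). Of 171 member differences under alternatives, 165 kept their direction and 6 turned to higher, each without transgenic replicate 3. Several alternatives, such as those on the filter or on how limma estimated the spread, kept the same probe sets and arrays for the members. Their differences could not change, so their share of the 165 adds no support. Leaving out 1 array at a time, the members' median difference ran from -1.29 (without transgenic replicate 2) to 0.0626 (without transgenic replicate 3), Tnc from -1.51 to 0.0626, Thbs1 from -0.86 to 0.0005, Thbs4 from -0.98 to 0.21, Cilp from -1.94 to 0.21, Pamr1 from -1.56 to 0.47 and Fn1 from -1.22 to 0.0711, with the same 2 arrays at the ends. Sparc ran from -0.68 to -0.05 with these 2 arrays at the ends, Cthrc1 from -3.18 to -0.35, and Postn from -1.75 (without transgenic replicate 4) to -0.63. Thbs1 was also at -0.31 without wild-type replicate 2. With array weights 1 gene in all was called instead of 0, no member, and the members' median was -0.32. When all probe sets of each gene were averaged, Tnc and Sparc were at -0.41 and -0.24. These averages took in the second Tnc probe set, above 5 in 0 arrays, and the third Sparc probe set, between 4.67 and 5.10. Alone, these 2 probe sets differed by 0.07 and 0.05. A model with the replicate number as a block, which holds 1 array of each group per number, cannot change a difference between group means. Its median of -0.82 was thus fixed in advance. Only the error could change, and 0 members were called. Same-numbered arrays correlated at 0.296, -0.0056, -0.334 and 0.20 in their deviations. The wild-type array that correlated best bore the same number for transgenic replicates 1 and 4, but not for replicates 2 and 3. Whether the numbers mark pairs was not tested. Values under 5 (Cthrc1, Pamr1 and Tnc in transgenic replicate 3) limit what these arrays show.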
